A study of Mus musculus with 2 samples.

Results

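Open chromatin was examined at the genes of the core-binding factors, Runx1, Runx2, Runx3 and Cbfb, in mouse regulatory T (Treg) cells that lacked or kept Tkt, the gene of transketolase in the non-oxidative pentose phosphate pathway. The members are the rows of both peak lists whose assigned gene symbol is one of these 4 names. They comprised 13 of 19680 peaks in the TKT cKO Treg library and 23 of 34440 peaks in the WT Treg library. The method was ATAC-seq, in which the Tn5 transposase inserts sequencing adapters into accessible DNA, so that a peak marks a stretch of open chromatin. The titles and the extraction protocol, which describes a transposition reaction, give this method, whereas the molecule and library source fields of the same labels name total RNA and a transcriptomic library. The TKT cKO Treg library came from female Foxp3cre/+ TKTfl/fl mice, in which Cre made by Foxp3-expressing cells deletes the floxed Tkt alleles. The WT Treg library came from female Foxp3cre/+ mice with intact Tkt. Both genotypes therefore carried 1 Foxp3-Cre allele, and the labels call the animals chimeric. Both were C57BL/6 mice aged 7 weeks, and the sort took CD4+CD25+YFP+ cells of spleen and lymph node, 50000 per reaction. The labels do not say how many animals went into a library. Each genotype has 1 library, so the differences below stand without replicates and without p-values.

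RUNX proteins bind DNA through the Runt domain and need the non-DNA-binding partner CBF-beta, the product of Cbfb, for stable binding. Each mammalian Runx gene has a distal and a proximal promoter, which give proteins with different amino-terminal ends. In CD4 T cells, Runx1 and Cbfb take part in Foxp3 expression and in Treg suppressive function, and the RUNX1 protein binds Foxp3. Runx3 silences Cd4 in CD8 T cells and acts with T-bet in type 1 helper cells, and Runx2 is best known as the regulator of bone formation.

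The promoters are shown first, because the strongest assigned peak of 3 of the 4 genes lay at a promoter and because their sequences link the family. The windows are those of RefSeq on GRCm38.p6, the assembly also called mm10, each with 250 bases before and 50 bases after a transcription start site. Of the 6 windows listed for the 4 genes, 5 are printed 5′ to 3′ on the strand of the gene, in lower case with each AACCACA, a sequence bound by RUNX proteins, in capitals. They are Runx1 distal at chr16:92826025-92826324 (minus strand), Runx2 distal at chr17:44814578-44814877 (minus), Runx3 distal at chr4:135120395-135120694 (plus), Runx1 proximal at chr16:92697280-92697579 (minus) and Cbfb at chr8:105170424-105170723 (plus).
Runx1 distal promoter: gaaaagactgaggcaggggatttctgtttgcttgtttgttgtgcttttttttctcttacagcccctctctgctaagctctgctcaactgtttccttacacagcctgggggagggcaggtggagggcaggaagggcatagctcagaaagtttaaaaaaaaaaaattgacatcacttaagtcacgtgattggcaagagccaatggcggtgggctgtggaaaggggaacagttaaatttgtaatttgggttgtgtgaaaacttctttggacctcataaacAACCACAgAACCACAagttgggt
Runx2 distal promoter: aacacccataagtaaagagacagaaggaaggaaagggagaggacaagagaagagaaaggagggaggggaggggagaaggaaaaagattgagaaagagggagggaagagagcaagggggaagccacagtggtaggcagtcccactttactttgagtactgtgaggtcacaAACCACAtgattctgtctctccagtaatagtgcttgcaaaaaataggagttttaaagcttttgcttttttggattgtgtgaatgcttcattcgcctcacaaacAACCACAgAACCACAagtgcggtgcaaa
Runx3 distal promoter: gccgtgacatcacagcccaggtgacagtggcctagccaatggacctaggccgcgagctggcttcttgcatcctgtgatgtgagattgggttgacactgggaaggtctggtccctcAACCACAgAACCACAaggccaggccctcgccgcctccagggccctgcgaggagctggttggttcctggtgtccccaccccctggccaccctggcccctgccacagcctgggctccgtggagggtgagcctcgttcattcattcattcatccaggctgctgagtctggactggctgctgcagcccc
Runx1 proximal promoter: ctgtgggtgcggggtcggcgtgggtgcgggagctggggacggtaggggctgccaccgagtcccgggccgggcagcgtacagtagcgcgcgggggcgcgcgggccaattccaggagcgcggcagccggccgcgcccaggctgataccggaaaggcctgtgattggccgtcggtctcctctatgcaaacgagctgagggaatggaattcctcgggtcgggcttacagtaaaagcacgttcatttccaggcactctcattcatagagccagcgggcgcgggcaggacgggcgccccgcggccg
Cbfb promoter: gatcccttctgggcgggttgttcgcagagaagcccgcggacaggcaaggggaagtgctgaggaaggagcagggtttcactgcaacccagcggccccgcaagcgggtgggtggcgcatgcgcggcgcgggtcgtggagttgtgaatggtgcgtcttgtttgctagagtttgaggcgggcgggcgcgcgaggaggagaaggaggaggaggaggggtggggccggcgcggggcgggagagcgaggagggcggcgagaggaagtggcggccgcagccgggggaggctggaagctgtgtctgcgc

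All 3 distal windows held 2 copies of AACCACA side by side on the strand of the gene, within an identical stretch of 18 bases, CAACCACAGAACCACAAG. It began at base 27 after the start in Runx1, at base 22 in Runx2 and at base 136 before the start in Runx3. Runx1 and Runx2 shared 22 bases there, AAACAACCACAGAACCACAAGT. Among 32851 promoter windows searched on both strands, the stretch of 18 bases was in 4. The 4th was the window of the predicted gene Gm16225, which covers the same Runx3 bases from the opposite strand. At least 1 copy of AACCACA on either strand was in 5.27% of all windows. A pair of copies on 1 strand starting within 20 bases of each other was in 12 windows (0.0365%). The proximal windows of Runx1 and Runx3 and the Cbfb window held no AACCACA, and a proximal window of Runx2 was not analysed here. Runx2 held a further copy 81 bases before its distal start. The windows also differed in base composition. The distal Runx1 and Runx2 windows had 45.0% and 45.3% G and C with 2 CpG dinucleotides each. The Runx3 distal window had 63.7% with 8 CpG, and the Runx1 proximal, Cbfb and Runx3 proximal windows had 69.0%, 69.7% and 77.3% with 35, 30 and 45 CpG.

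Peaks of both libraries covered all 300 bases of 4 of the windows, Runx1 distal, Runx1 proximal, Runx3 distal and Cbfb. No peak of either library reached the Runx2 distal window. The nearest peak began 36835 bp away in the cKO library and 36764 bp away in the WT library. At the Runx3 proximal window the nearest peak began 344 bp away in the cKO library and 345 bp away in the WT library, inside the transcribed region. Of the distal promoters, 2 of the 3 that share the paired RUNX sequence lay in open chromatin in both libraries, and that of Runx2 had no called peak in either. A match of letters is a description and does not show binding.

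Over the 4 genes together, every cKO peak had a WT counterpart and about as many WT peaks lacked a cKO counterpart as in the whole list. A peak counted as overlapped when a peak of the other library shared at least 1 bp with it. A WT peak overlapped 13 of 13 cKO peaks (100%, Wilson 95% interval 77.2 to 100), and across the whole cKO list 2.36% of peaks had no WT overlap. A cKO peak overlapped 13 of 23 WT peaks (56.5%, 36.8 to 74.4), which leaves 10 without one. Across the whole WT list 43.9% of peaks had no cKO overlap, so 10 of 23 is near the background and is not a result about these genes. By gene, the cKO and WT libraries had 7 and 11 peaks at Runx1, 1 and 3 at Runx2, 4 and 8 at Runx3, and 1 and 1 at Cbfb. Each of the 4 genes had at least 1 WT peak with a cKO overlap, and 28.0% of the 19215 genes with a WT peak had none overlapped. The 2 counts are not like for like, since a gene with more peaks has more chances of an overlap. Of these 19215 genes, 72 had as many WT peaks as Runx1 or more, 235 had as many as Runx3 or more, and 11814 had 1 peak, like Cbfb.

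Score separated the 2 kinds of WT peak at these genes almost fully. The score is the value the authors' list gives each peak, and it is used here only as a rank within its own list. A score percentile runs from 0 for the lowest peak of a list to 100 for the highest. The WT list is longer, so percentiles of the 2 lists are not like for like. Ranks among matched pairs are given further below. The 10 WT peaks without a cKO overlap had scores between 5.38 and 19.8, at percentiles 9.94 to 40.6, and the 13 overlapped ones had scores between 10.2 and 187, at percentiles 22.9 to 91.7. All 12 WT peaks above the WT median score of 28.1 were overlapped, and 1 of the 11 below it was. In the whole WT list the shares were 88.0% above and 24.1% below the median. With the WT list split into 10 score bins of equal size, the mean overlap of all WT peaks in the bins of the 23 was 54.0%, which corresponds to 12.4 peaks, against the 13 found. Width moved with score. The 10 peaks without an overlap were 383 to 1011 bp wide with a median of 681.5 bp, and the 13 overlapped ones 690 to 2945 bp with a median of 1021 bp. The narrowest peak of the cKO list had 465 bp, and 2 of the 10 were narrower than that. The part of score, width and sequencing depth in the missing overlaps was not tested.

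**Figure D1:**
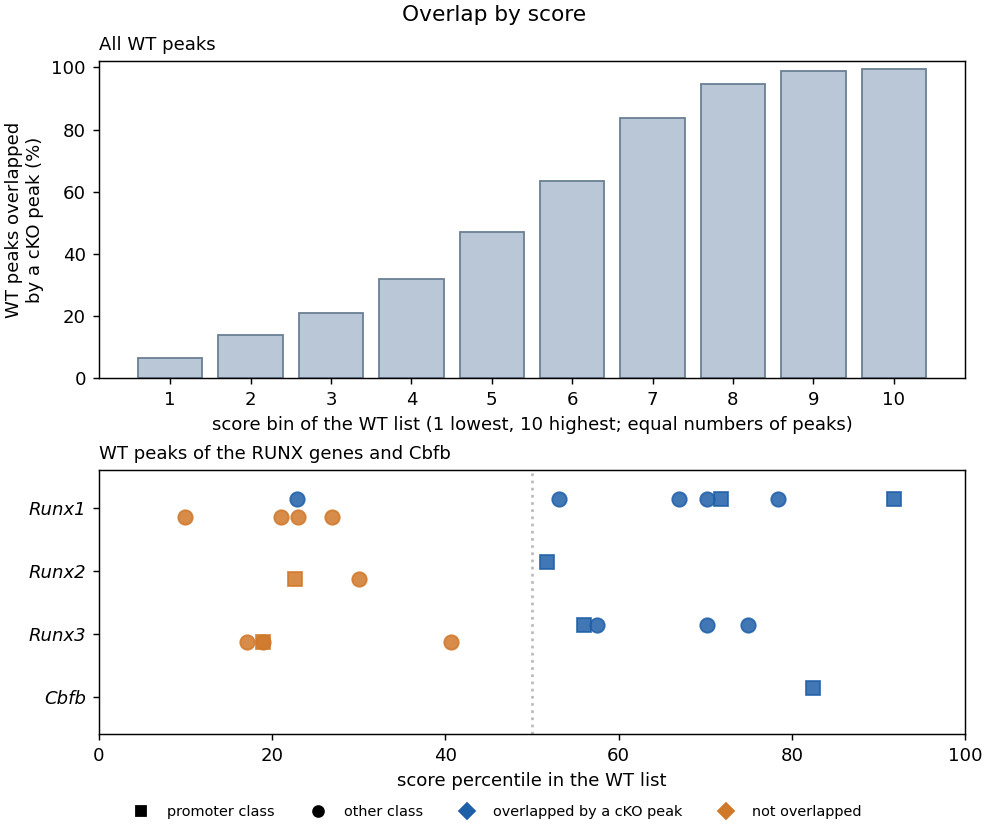
The upper panel shows, for 10 equal groups of WT peaks ordered by score, the percentage overlapped by a cKO peak. The lower panel places the 23 WT peaks of the 4 genes by score percentile in the WT list, with squares for the promoter class and circles for other classes. Points are raised where a cKO peak overlaps and lowered where none does, and 12 of 12 peaks above the 50th percentile are overlapped against 1 of 11 below it.

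Runx1, the family member most tied to Foxp3, had both promoters open in both libraries. At its distal promoter, the start of transcript Runx1-201, the cKO peak at chr16:92825057-92826496 scored 67.7 (rank 1466 of 19680, percentile 92.6). The WT peak there, at chr16:92824544-92826514, scored 187 (rank 2846 of 34440, percentile 91.7). These were the strongest peaks of the 4 genes in each list. At the proximal promoter, the start of Runx1-202, the cKO peak at chr16:92696901-92698868 was 1968 bp wide and stood at percentile 61.1. The WT peak at chr16:92696787-92699051 was 2265 bp wide and stood at percentile 71.8, and it contained the whole cKO peak. In both libraries the distal promoter therefore outranked the proximal one.

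Between the promoters of Runx1 lay a row of open regions in intron 2 of Runx1-201, which holds all other peaks assigned to the gene. The cKO library had 5 peaks there and the WT library 9. All 5 cKO peaks overlapped a WT peak. Measured from the Runx1-201 start, the overlapped regions at which both libraries gave that distance lay at 7114, 23632, 39124 and 57957 bp in the cKO library and at 7028, 23894, 38734 and 57702 bp in the WT library. The 5th, near the middle of the interval between the promoters, was given as 50773 bp (cKO) and 50522 bp (WT) upstream of Runx1-202. The order of strength among the intron peaks was not the same in the 2 lists. In the cKO library the region 39124 bp from the start led with a score of 23.4, followed by that at 23632 bp with 18.7 and that at 7114 bp with 10.6. In the WT library the region at 23894 bp led with 99.0, followed by that at 7028 bp with 66.9 and that at 38734 bp with 57.3. The 2 peaks of the leading WT region, cKO at chr16:92801416-92802517 and WT at chr16:92801526-92802255, are also the case at Runx1 in which the cKO peak was the wider one, at 1102 against 730 bp. The weakest overlapped region, 50773 bp upstream of Runx1-202 in the cKO library, stood at percentile 6.22 in the cKO list and 22.9 in the WT list.

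The 4 WT peaks of Runx1 without a cKO overlap were all in this intron, at 10814, 15011, 26372 and 63968 bp from the Runx1-201 start. Their scores of 10.2, 9.37, 11.7 and 5.38 put them in the lowest 3 of the 10 score bins of the WT list, in which between 6.68% and 21.1% of all peaks were overlapped. Their widths were 731, 458, 640 and 612 bp. Both promoters and the 4 strongest intron 2 peaks of the WT list were thus overlapped, and the assigned peaks that were not had low scores. Farther along the gene, 1 cKO and 3 WT peaks in introns 5 and 6 of 7 carried the symbol Gm26626. Of these WT peaks 1 was overlapped, beside 56.1% of all WT peaks. The 2 others stood at percentiles 45.5 and 3.76, in score bins where 47.0% and 6.68% of all WT peaks were overlapped.

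**Figure D2:**
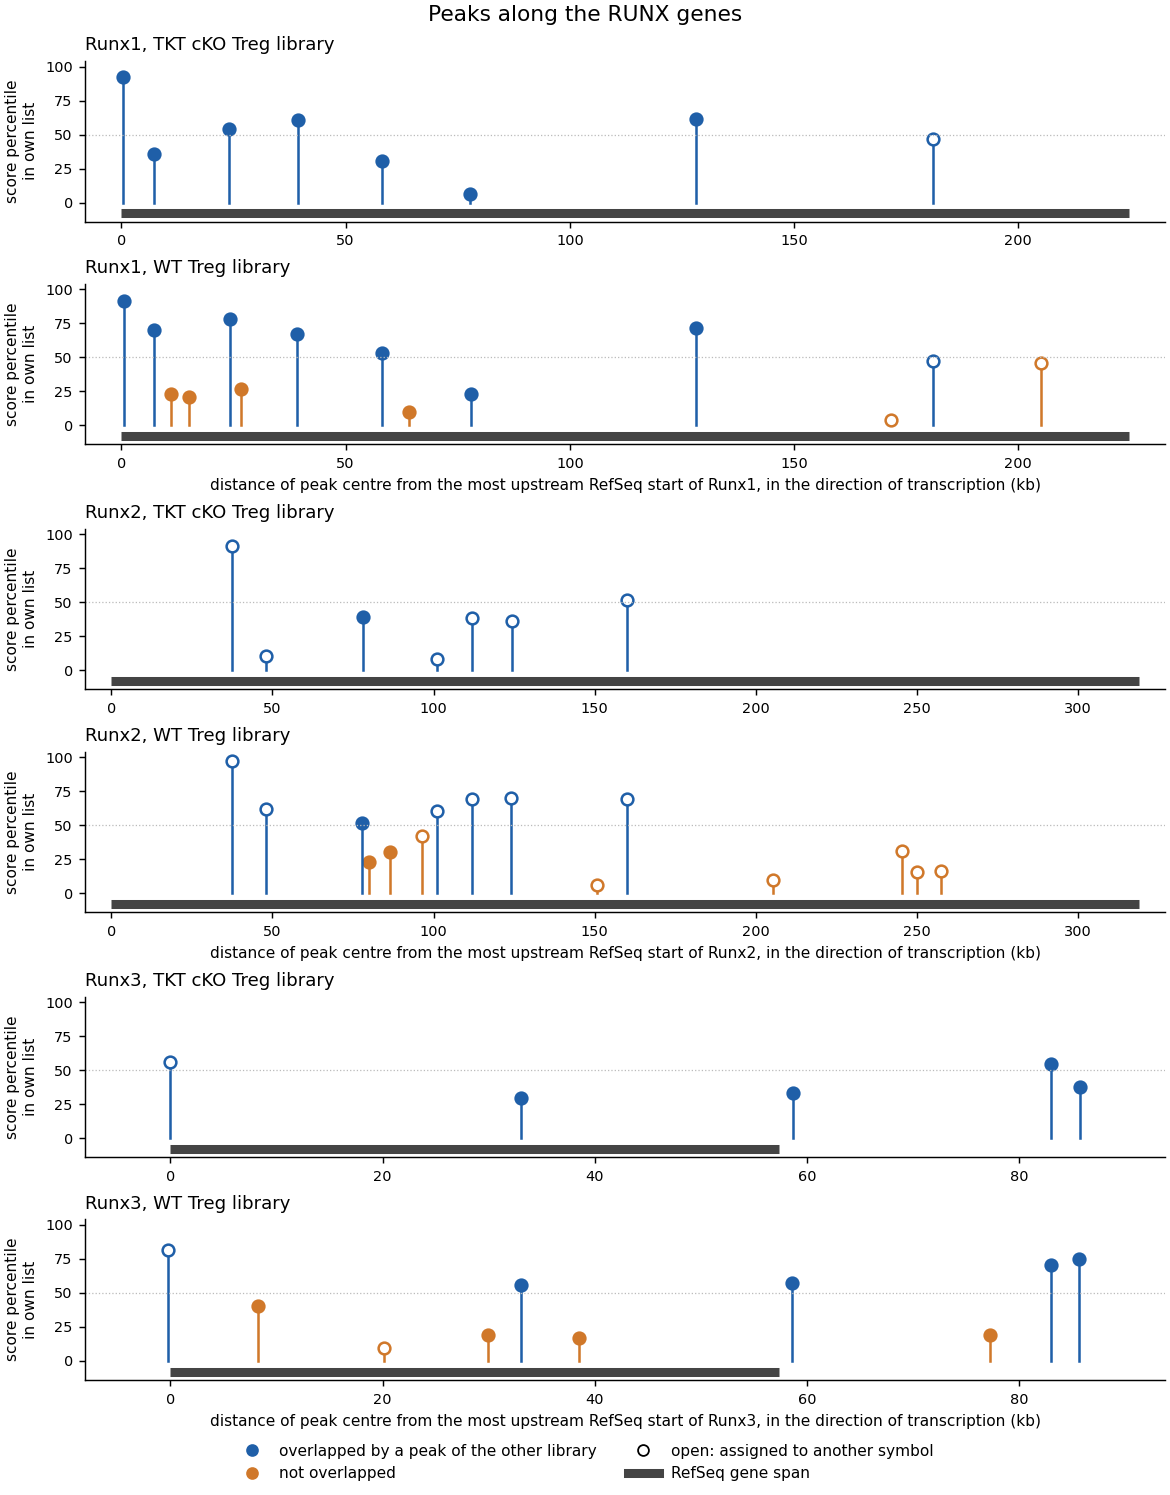
Each point is a peak of the cKO library (upper panel of each pair) or the WT library (lower panel), placed by the distance of its centre from the most upstream RefSeq start of Runx1, Runx2 or Runx3 in kb and by its score percentile in its own list. Blue points overlap a peak of the other library, orange points do not, open points carry another gene symbol in the lists, and the dark bar is the RefSeq gene. All points of the cKO panels are blue, and at the left end both Runx1 and Runx3 have a peak in each library whereas Runx2 has none.

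Runx2 had a single assigned cKO peak, at chr17:44735731-44737556, which spanned the start of transcript Runx2-203 and stood at percentile 39.3 with a score of 11.9. The WT peak it overlapped, at chr17:44735547-44738491, was 2945 bp wide, the widest of the 23, and stood at percentile 51.7 with a score of 30.0. This start lies within the gene, about 78.1 kb downstream of the distal start. The other 2 WT peaks had no cKO overlap. One, of the promoter class, lay 467 bp inside Runx2-210 and scored 10.0, and the other, 6801 bp inside in intron 1 of 6 of Runx2-203, scored 13.3.

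The symbol rule leaves out most open regions in the body of Runx2, since the lists give them to transcripts that lie within or opposite the gene. Counted over the RefSeq span of Runx2 with 1 kb on each side, the cKO library had 7 peaks and the WT library 15, of which 6 and 12 carried another symbol. These symbols were Runx2os2 and Runx2os3, antisense transcripts, n-R5s27, a 5S ribosomal RNA gene copy, and Supt3, a neighbour whose start lies inside the Runx2 span. All 6 of these cKO peaks overlapped a WT peak, as did 6 of the 12 WT peaks with a cKO peak. Across the whole lists 2.36% of cKO peaks and 43.9% of WT peaks had no overlap, so these counts are near the background. The region in intron 4 of 6 assigned to n-R5s27 had a cKO peak at percentile 51.8 and a WT peak at percentile 69.1, each above the assigned Runx2 promoter peak of its list. In intron 3 of 6 lay 2 further regions, assigned to Runx2os2, at percentiles 36.3 and 38.4 in the cKO list and 69.7 and 69.4 in the WT list. Among the one-to-one overlapping pairs described below, the intron 4 region stood at 50.5 in the cKO library and 45.9 in the WT library. The intron 3 regions stood there at 34.6 and 36.8 in the cKO library and at 46.7 and 46.4 in the WT library. The strongest peak within the span belonged to the Supt3 start, at percentile 91.5 in the cKO list and 97.1 in the WT list. Whether these regions act on Runx2 cannot be read from peak positions.

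Runx3 had 4 assigned cKO peaks and 8 assigned WT peaks, and its most upstream promoter was missing from both sets. The peaks at the start of Runx3-201, cKO at chr4:135120150-135121077 and WT at chr4:135119982-135120946, were assigned to Gm16225, a predicted transcript that starts on the opposite strand beside it. The cKO peak stood at percentile 55.9 with a score of 19.8, and the WT peak at percentile 81.7 with a score of 116. In each list this peak ranked above every peak assigned to Runx3.

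At the proximal promoter of Runx3 the cKO peak at chr4:135152938-135154429 and the WT peak at chr4:135152939-135154427 had nearly the same ends. They began 442 and 443 bp after the start of Runx3-202, so neither contained that start. Their percentiles were 29.2 and 56.0, in lists of unlike length. Among the one-to-one overlapping pairs described below, both stood at 27.4. Downstream of the gene the lists placed 3 overlapped regions in intergenic DNA, at 26282, 50774 and 53573 bp from the Runx3-202 start in the cKO library and at 26282, 50734 and 53320 bp in the WT library. In the cKO library the region at 50774 bp was the strongest assigned to Runx3, with a score of 18.8, and that at 53573 bp scored 11.2. In the WT library the order of this pair was the other way round, with 66.6 at 50734 bp and 83.3 at 53320 bp. The peak farthest downstream was also narrower in the cKO library, at 492 bp against 895 bp in the WT library.

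The 4 WT peaks of Runx3 without a cKO overlap scored between 7.86 and 19.8. They lay 7768 bp after the start of Runx3-201 in intron 1 of 5, 1694 bp upstream and 6316 bp downstream of the Runx3-202 start, and 45006 bp downstream in intergenic DNA. The peak in intron 1, at chr4:135128420-135129415, had the highest score of the 10 WT peaks assigned to the family without a cKO overlap. It stood at percentile 40.6, in a score bin where 47.0% of all WT peaks were overlapped. Upstream of the gene, 4 cKO and 5 WT peaks between 17.1 and 53.6 kb from the RefSeq start were assigned to Gm16225. The strongest of them, about 40.3 kb upstream, stood at percentile 81.6 in the cKO list and 80.1 in the WT list, and the only one without an overlap was a WT peak of score 6.99.

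Cbfb, which encodes the shared partner subunit, had 1 peak in each library, at its start. The cKO peak at chr8:105170304-105171563 scored 38.6 (rank 4365, percentile 77.8), and the WT peak at chr8:105170120-105171887 scored 119 (rank 6067, percentile 82.4). The WT peak contained the whole cKO peak and was 1768 bp wide against 1260 bp. Of the 11814 genes with 1 WT peak, 7602 had it overlapped. No other peak lay in the 47.3 kb of the gene in either library. A WT peak at percentile 25.1, assigned to D230025D16Rik, began just past the gene end and had no cKO overlap.

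Promoter class and other peaks of the 4 genes did not stand apart from the list. The promoter class, peaks within 3 kb of a start site, held 5 cKO peaks and 7 WT peaks, and 2 of the 7 had no cKO overlap (71.4% overlapped, 35.9 to 91.8). Across the WT list 25.7% of promoter-class peaks had no cKO overlap. Of the 16 WT peaks in introns or intergenic DNA, 8 had no cKO overlap (50.0% overlapped, 28.0 to 72.0), beside 58.6% without one across the list. Both shares are near their background.

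To compare strength in the same set of regions, the 18926 pairs in which 1 cKO peak and 1 WT peak overlap each other alone were ranked by score within each library. The 13 pairs of the 4 genes were all of this kind. Their percentile among pairs was higher in the cKO library for 10 of 13 and lower for 3, with a median difference, cKO minus WT, of 4.39 points. Across all pairs 48.3% were higher in the cKO library and the central 95% of differences ran from -24.9 to 27.1 points. The 13 differences ran from -19.7 to 17.5, inside that range. None reached 20 points in either direction, while 5.36% of all pairs were at least 20 points lower and 6.34% at least 20 points higher in the cKO library. These values describe the regions and are no test of the genotypes.

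The largest positive difference within the family was at the Runx1 intron 2 region 39124 bp from the start in the cKO library, at 59.9 in the cKO library and 42.4 in the WT library. It was followed by the Runx2-203 promoter, at 37.7 in the cKO library and 22.7 in the WT library. The 3 lower pairs were the Runx3 region 53573 bp downstream in the cKO library (35.7 against 55.4 in WT), the Runx1 region 7114 bp from the start (34.1 against 47.7) and the Runx1 region 23632 bp from the start (52.7 against 61.5). Both Runx1 promoters and Cbfb ranked higher in the cKO library, by 7.17, 9.79 and 8.61 points. Among the pairs in the gene spans under other symbols, 5 of 6 at Runx2 ranked lower in the cKO library, and 2 of these by more than 20 points. The 2 were the exon of Runx2os2 (6.99 in the cKO library, 33.4 in WT) and the region assigned to Supt3 in intron 2 of a Runx2 transcript (8.74 in the cKO library, 35.2 in WT). The Runx1 region assigned to Gm26626 in intron 5 of 7 ranked 26.6 points higher in the cKO library. The Runx3 distal promoter ranked 12.6 points lower, at 54.7 in the cKO library against 67.2 in WT.

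**Figure D3:**
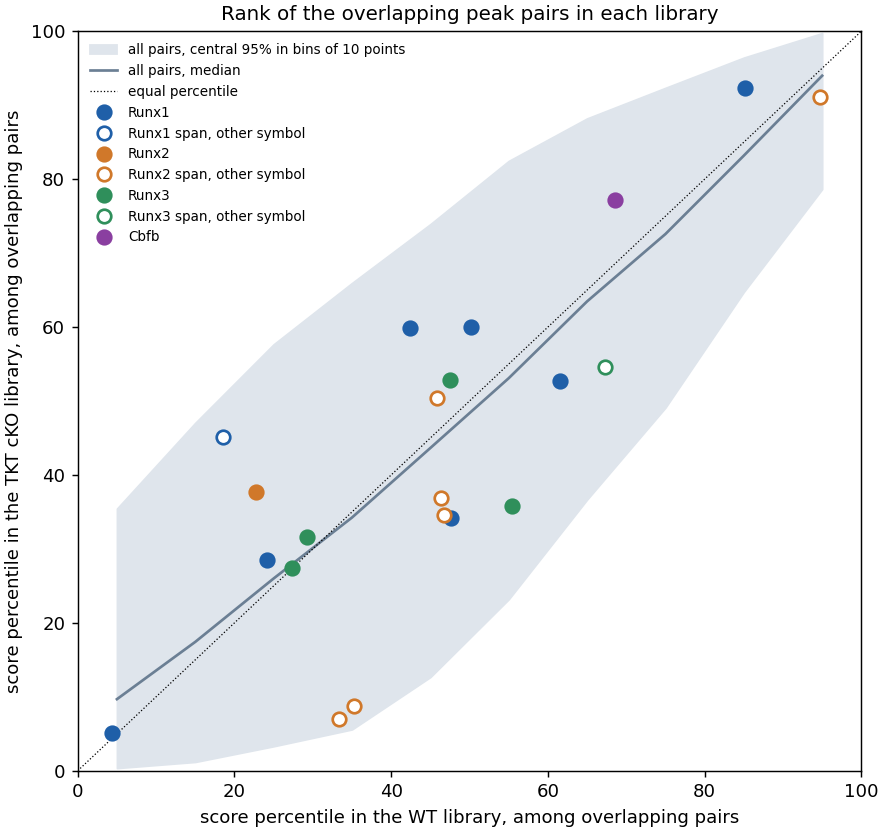
Each coloured point is an overlapping peak pair, placed by its score percentile among the 18926 pairs in the TKT cKO library (vertical axis) and in the WT library (horizontal axis). Filled points are assigned to the 4 genes and open points lie in their spans under another symbol, and the grey band holds the central 95% of all pairs in bins of 10 points. For the filled points, the cKO percentile minus the WT percentile runs from -19.7 to 17.5 points.

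Within one-to-one pairs the cKO peak was the narrower one at 9 of the 13 pairs of the 4 genes (69.2%) and at 85.3% of all pairs. Over all peaks, paired or not, the median widths were nearly the same, 974 bp in the cKO list and 977 bp in the WT list. The median overlap covered 71.3% of the WT peak at the 4 genes and 81.1% across all pairs. The 4 pairs in which the cKO peak was at least as wide as the WT peak were at the Runx1 region 23632 bp from its start and at 3 Runx3 regions.

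Of 26 genes listed as RUNX targets, 20 had a cKO peak and 24 a WT peak. For 7 of the 24 all WT peaks were overlapped, for 13 some and for 4 none, beside the 28.0% of all genes with a WT peak that had none overlapped. The list was chosen by hand and does not stand for all genes regulated by RUNX proteins. Together 67 of 68 cKO peaks had a WT overlap, beside 97.6% of all cKO peaks. A cKO peak overlapped 67 of 105 WT peaks (63.8%, 54.3 to 72.4), against 51.4% for all WT peaks in the same score bins. Without matching by score bin, the share over all WT peaks was 56.1%. Restricted to the upper 50% of each list by score, again without matching, the order was the other way round. The shares were 48.8% for the targets (21 of 43) and 57.0% for all WT peaks. Foxp3 had 2 peaks in each library, all overlapped. Bcl11b, a factor of T cell commitment, had 12 cKO peaks and 21 WT peaks, of which 12 were overlapped, and a WT promoter peak 453 bp upstream of its start, at percentile 61.3, was not. Ccr7, the lymph node homing receptor, had 8 cKO peaks and 14 WT peaks, of which 9 were overlapped. S1pr1, the receptor for egress from lymph nodes, had 6 cKO peaks and 8 WT peaks, of which 5 were overlapped.

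The target list also held the strongest WT peaks without an overlap at Il2ra, the alpha chain of the IL-2 receptor, 12123 bp into the gene at percentile 68.6, and at Spi1, the myeloid factor PU.1, 5075 bp into the gene at percentile 60.4. These peaks and that of Bcl11b were picked by gene for the highest score among the 38 target peaks without an overlap. They lay in a score bin where 83.7% of all WT peaks were overlapped. Among the genes of the list with WT peaks and no cKO peak under their symbol were Zbtb7b and Il4 with 2 each and Spi1 with 1. Promoter peaks of these genes under another symbol were not counted. Zbtb7b encodes ThPOK, the CD4 lineage factor that RUNX complexes repress. Its stronger WT peak, of the 3′ UTR class and 8297 bp from the start, stood at percentile 51.2. In that score bin 63.3% of all WT peaks were overlapped. The strongest WT peak of Il4, the type 2 cytokine gene, lay in intergenic DNA 11275 bp from the start. It stood at percentile 45.0, in a bin where 47.0% of all WT peaks were overlapped. Zbtb7b and Il4 were chosen after their values were seen. At Cd4 itself, the cKO library had 1 peak and the WT library 2, of which 1 was overlapped. Cd8a and Gzmb had no peak in either library.

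Of 29 genes listed as cofactors and partners of RUNX proteins, 19 had a cKO peak and 18 a WT peak under their symbol, and 36 of 57 WT peaks were overlapped (63.2%, 50.2 to 74.5), against 60.4% of all WT peaks in the same score bins. Of the 37 cKO peaks, 35 had a WT overlap, beside 97.6% of all cKO peaks. Elf4, an ETS factor, had 5 cKO peaks and 8 WT peaks with 5 overlapped, Smad3, a TGF-beta signal transducer, 5 and 7 with 6 overlapped, and Tle4, a Groucho corepressor, 4 and 7 with 4 overlapped. Cbfa2t3, a corepressor of the ETO family, had no cKO peak and 2 WT peaks, the stronger at percentile 33.1. In that score bin 32.0% of all WT peaks were overlapped. Tle3 and Gata1 had 1 cKO peak each, at percentiles 18.1 and 14.7 of the cKO list, and no WT peak. Of the 11 cofactor genes with no WT peak under their symbol, 7 had a RefSeq promoter window inside a cKO peak and the same number inside a WT peak, so the assigned symbol undercounts them.

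**Figure D4:**
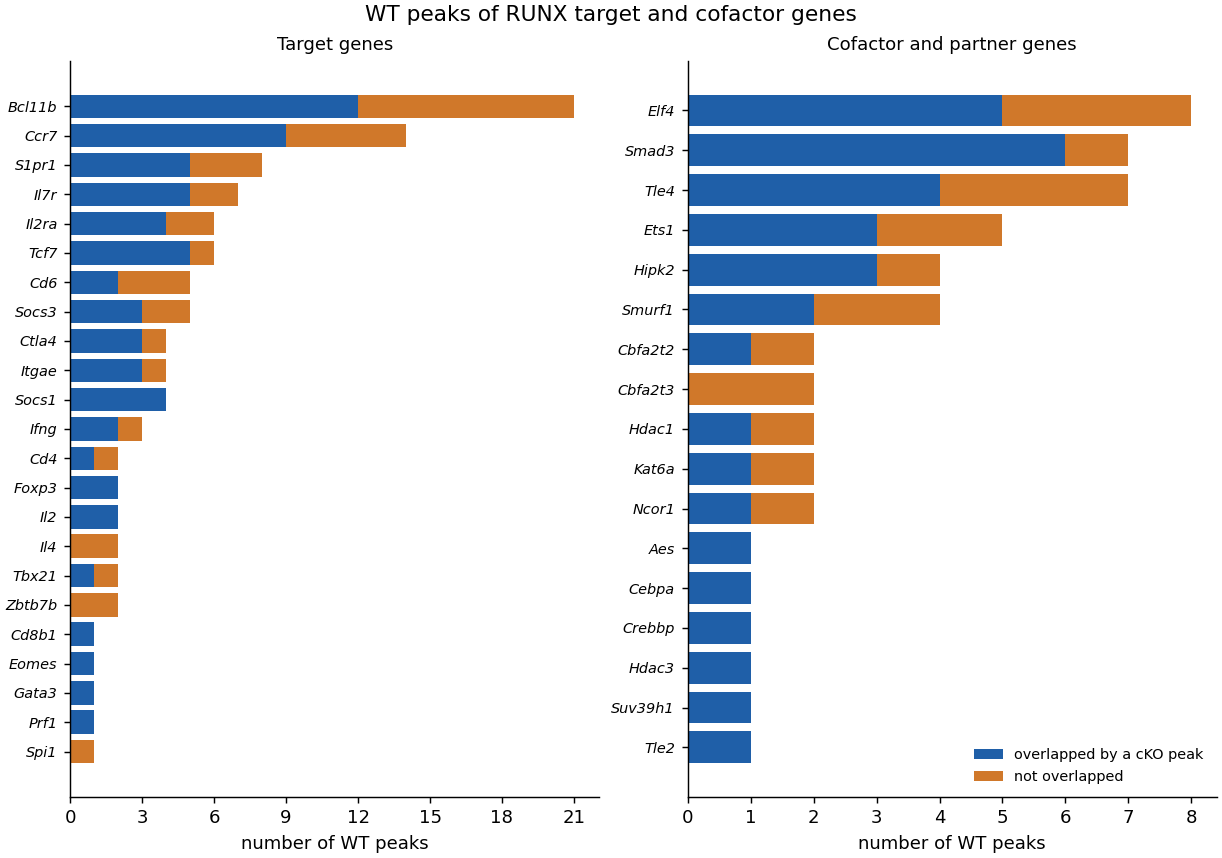
Bars give the number of WT peaks assigned to each RUNX target gene (left) and to each cofactor or partner gene (right), split into peaks overlapped by a cKO peak (blue) and not overlapped (orange). Genes without a WT peak and a few genes not reported here are not drawn, and the longest bar is Bcl11b with 12 of 21 WT peaks overlapped.

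The genes most like the members were named from their peak counts and from the percentile of their strongest peak in each list, over the 2 libraries. Among the 4 other named genes with 11 WT peaks of which 7 were overlapped, Pik3r1 was closest to Runx1, with its strongest peaks at 88.9 in the cKO list and 93.0 in the WT list. Fyb followed at 80.7 and 81.9. Cd200 and Chst2 were closest to Runx3, Mpp6 and Mab21l3 to Runx2, and Ado and Mri1 to Cbfb, the last among 5258 genes with the same counts. The likeness is one of counts and ranks only.

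The cell type labels were checked with defining markers. All 6 Treg markers (Foxp3, Il2ra, Ctla4, Ikzf2, Cd4 and Cd3e) had a peak in each library. Of their 24 WT peaks, 17 were overlapped (70.8%, 50.8 to 85.1), an interval that includes the 56.1% of all WT peaks. Some markers of other cell types had peaks too. B cell markers had 1 cKO peak and 5 WT peaks, with none at Ms4a1 or Pax5. They were assigned to Cd79a, with 1 peak in each library at percentile 0.315 in the cKO list and 63.4 in the WT list, and to Cd79b. Cd79b had 4 WT peaks up to percentile 41.9 and no cKO peak. The strongest of the 4 was of the exon class and lay 10598 bp upstream of the Cd79b start. CD8 T and NK cell markers had 4 cKO peaks and 6 WT peaks, with none at Cd8a or Ncr1. Klrb1c had the strongest, at percentile 85.1 in the cKO list and 86.6 in the WT list, and Cd8b1 and Eomes had 1 peak in each library. Myeloid markers had 2 peaks in each library, with none at Itgam or Csf1r. They were Cebpb in both, at percentile 91.2 in the cKO list and 90.0 in the WT list, Lyz2 in the cKO library alone (39.1) and Spi1 in the WT library alone (60.4). Erythroid and stromal markers had 8 cKO peaks and 10 WT peaks, with none at Hbb-bt. Pecam1 had 5 and 7 of these, up to percentile 82.5 in the cKO list and 83.4 in the WT list, Klf1 1 each at 68.7 and 87.3, Col1a1 1 and 2, and Gata1 the cKO peak named above. Their part in the results was not tested. Tkt had 1 promoter peak in each library, which does not check the deletion, since the labels do not place the floxed part. In bulk libraries, fewer cells with a region open and less opening per cell cannot be told apart.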

How the data were processed

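ATAC-seq peak lists of 2 libraries, TKT cKO Treg and WT Treg, were used. The submitters' processing notes name build mm10 and the tools Trimmomatic, FastQC, BWA and MACS2. Versions, settings, any Tn5 shift and read filters were not given in the sources used here. Both lists hold the peaks of 1 library each, with a position, a score deposited by the authors without definition, an annotation class, 1 assigned gene and a distance to a start site. Such a score may move with depth, which is unknown here, so it was used only for ranks within a list. Coordinates are those of the lists, counted from 1, and lengths are in bp.

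Overlaps of at least 1 bp were computed in Python 3.11.15 with pandas 2.3.3, tested on simulated data, and differed from bedtools 2.31.1 at 0 of 34440 WT peaks. Intervals are Wilson 95% intervals (SciPy 1.17.1) and cover counting error only. Score bins, percentiles and pair ranks were taken over whole lists. RefSeq promoter windows were found for 4 of 4 genes, and motifs were searched on both strands; ACCACA, the core within AACCACA, was in 16.8% of the 32851 windows. The members and the gene lists were chosen with earlier results of these data known. The genes named were the 4 members, the 3 genes of each list with most WT peaks, the 3 with the strongest WT peak without overlap, the 2 most like genes and the markers; others were chosen after their values were seen. A few listed genes are counted but not reported by name here. Alternatives were a stricter overlap, peaks above the median score, equal numbers, wider WT peaks, other peak assignments, peaks away from starts and leaving out Runx1.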

Additional observations from a re-analysis of the deposited data

How the results depend on the processing

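Of 57 alternative values, 41 lay inside the interval of the reported share and 16 outside it. The width of that interval depends on the number of peaks. It ran from 20.7 to 100 for Cbfb with its 1 WT peak, and from 55.6 to 56.6 for all WT peaks. Every alternative for Cbfb lay inside, and every alternative for the whole lists lay outside. The tally therefore does not measure how stable the shares are. With the WT list reduced to its strongest 19680 peaks, 12 of 12 WT peaks of the 4 genes were overlapped (100%), and 100% at each of Runx1, Runx2 and Runx3. These 12 are the same peaks that lay above the WT median score. In the other direction 12 of 13 cKO peaks of the 4 genes had an overlap with the reduced WT list (92.3%). Under this setting the share was 83.0% for all WT peaks, 83.0% for all cKO peaks, 83.6% for the targets and 94.3% for the cofactors. Above the median score of each list, Runx2 shared 0 of 1 WT peaks (0%), because its cKO peak lies below the cKO median, all WT peaks 57.0%, all cKO peaks 99.4% and the targets 48.8%. Runx2 also stood at 0% (0 of 1) among peaks not within 1 kb of a start. With 50% of both peaks required, all WT peaks stood at 51.1% and all cKO peaks at 89.3%. Without WT peaks under 465 bp, the narrowest width in the cKO list, all WT peaks stood at 60.9%. Counting all peaks in the RefSeq spans, an alternative chosen after seeing the data, gave 21 of 41 WT peaks (51.2%) and 21 of 21 cKO peaks for the 4 genes. The causes of these shifts were not tested beyond the change of list each setting makes. Depth is unknown, so a missing peak may be one that the caller scored too low. No paired analysis was possible because there is 1 library per genotype, which also leaves no replicate to omit.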

Other observations

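AACCACA was counted in promoter windows grouped by the peaks that overlap them by at least 1 bp, as a description of these libraries. It was in 3.80% (3.44 to 4.18) of 10408 windows with a peak in both libraries, in 5.19% (2.04 to 12.6) of 77 with a cKO peak only, in 4.97% (4.05 to 6.07) of 1792 with a WT peak only and in 6.04% (5.72 to 6.38) of 20574 with neither. Base composition and peak score were not matched between these windows. Of the 12 windows with a pair of AACCACA, 6 had a peak in both libraries, beside 10408 of all 32851 windows. Besides Runx1, Runx3 and Gm16225 these were the window of St8sia4, a polysialyltransferase gene, and the 2 overlapping windows of Gm41331. The Runx3 and Gm16225 windows overlap as well, so the 6 are not all separate regions, and no enrichment is read from this count. The window of Gpr15, a homing receptor of T cells in the large intestine, held a pair and had no peak in either library.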
